A study of Mus musculus with 6 samples.

Results

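The nonvisual opsins and the peptide PACAP make up a small group of light-sensing and light-signalling genes of the eye. The 5 rows described here, chosen by gene symbol, are Opn3, Opn4, Opn5, Rrh and Adcyap1, of 22692 gene symbols measured. RNA of whole eyes from female C57BL/6J mice, an inbred laboratory strain, aged 4 weeks was sequenced at 1.5 h and at 9.0 h from the start of the light phase. Each of the 3 libraries at each time was made from RNA pooled from 5 mice, after selection of poly(A) RNA and random priming. The mice carried no engineered allele or treatment that the labels name, and time of day is the one difference they give. Whether separate animals went into each pool is not stated; the tests thus rest on the spread among libraries, part of which may be technical.

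Opsins are G protein-coupled receptors that hold a retinal chromophore. Visual opsins serve image formation, whereas nonvisual opsins report light for other purposes, such as setting the circadian clock and the pupil. Melanopsin (Opn4) makes a small class of retinal ganglion cells intrinsically photosensitive, through a Gq protein, phospholipase C and TRPC channels. Many of these cells also contain PACAP, the product of Adcyap1, which they release together with glutamate onto the brain's clock, the suprachiasmatic nucleus. Peropsin (Rrh) lies in the pigment epithelium, encephalopsin (Opn3) is found in many tissues, and neuropsin (Opn5) responds to short-wavelength light.

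Values were read as RPKM, reads scaled by gene length and by the reads of the library, which the steps between low values bear out but the file headers do not state. On this scale levels of different genes can be set side by side. A whole eye mixes retina, pigment epithelium, lens, cornea and muscle, and a lower value can mean fewer cells of a type or less RNA per cell, which cannot be told apart. The defining markers of these tissues were present, with 1338 to 2162 RPKM for Krt12 (corneal epithelium), 45.1 to 86.2 for Rpe65 (pigment epithelium) and 64.9 to 83.4 for Sncg (ganglion cells). Estimated depth was 12760000 reads in 1.5 h replicate 2, 13000000 in 1.5 h replicate 3, and between 24040000 and 31700000 in the other 4 libraries. Crystallin genes of the lens took 31.4% of summed RPKM in 1.5 h replicate 1 and 37.8% to 46.1% in the other 5 libraries. In 1.5 h replicate 3, a pool labelled female, 4 Y-linked genes were above 0 (Eif2s3y had 0.78 RPKM), and none of them was above 0 elsewhere. The blood gene Beta-s was also highest there, at 366.9 RPKM against 41.9 to 117.7 in the other libraries. Results below are given without these libraries where this changes a call or a size by much.

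The 5 genes spanned a wide range of levels, in the order Rrh, Opn3, Opn4, Adcyap1 and Opn5. Over the 6 libraries Rrh had a mean of 15.2 ± 4.26 RPKM (SD, n = 6), above 82.0% of all genes. Opn3 had 2.79 ± 0.56 and Opn4 2.50 ± 0.19, close to the middle of all genes, with 51.0% and 49.6% of genes lower. Adcyap1 had 0.84 ± 0.26 RPKM. Rrh exceeded Opn3 in 6 of 6 libraries, by 3.84- to 10.9-fold, and Opn4 exceeded Adcyap1 in 6 of 6, by 1.99- to 4.55-fold. Both steps had an adjusted p of 0.0417 by an exact sign-flip permutation test, two-sided, adjusted over the 4 neighbouring pairs. The smallest unadjusted p that 6 libraries allow, 0.0313, was reached in each. The order, and so the pairs, came from the mean levels in these same libraries. These p-values therefore describe the order and are no independent support for it. Opn3 and Opn4 did not differ in level beyond their spread: Opn3 was higher in 4 of 6 libraries, with a mean log2 ratio of 0.13 ± 0.31 (SD; adjusted p = 0.375, the same exact permutation test). Opn3 was the higher of the pair in 1 of 3 libraries at 1.5 h and in 3 of 3 at 9.0 h.

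**Figure D1:**
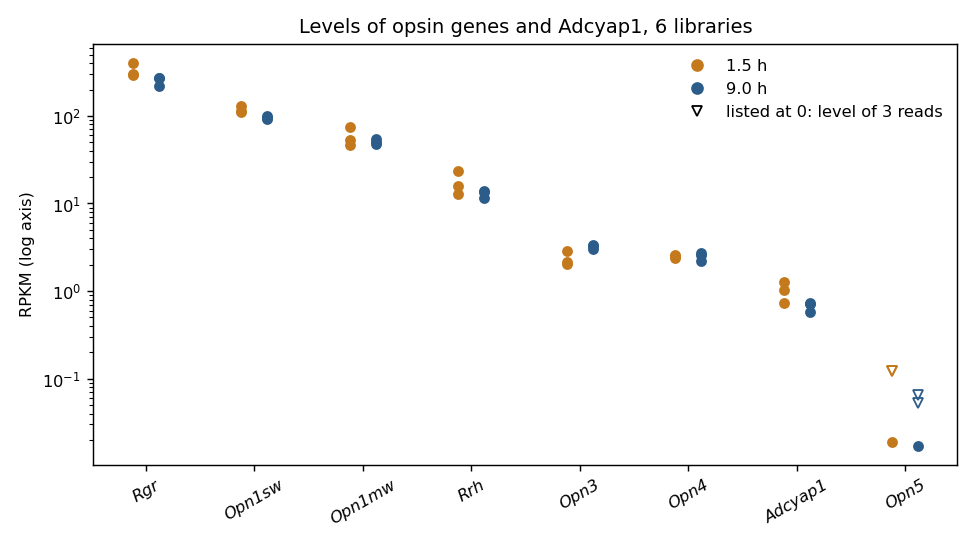
RPKM (log axis) of 7 opsin genes and Adcyap1 in the 3 libraries at 1.5 h (orange) and the 3 at 9.0 h (blue); open triangles mark libraries that list Opn5 at 0, drawn at the level 3 reads would give. Rgr lies between 216.8 and 400.7 RPKM, Rrh between 11.5 and 23.4, Opn3 and Opn4 between 2.06 and 3.39, and Opn5 at or under the level of 3 reads.

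Other opsins of the eye stood well above the most abundant gene of the set. The cone opsin Opn1sw had 92.3 to 129.3 RPKM, against 11.5 to 23.4 for Rrh. Rgr, an opsin of the pigment epithelium and Mueller glia that handles the chromophore, exceeded Rrh, its neighbour in the pigment epithelium, by 17.2- to 23.2-fold. The ratio of Rgr to Rrh had a mean of 19.7 ± 3.15 at 1.5 h and 19.4 ± 0.50 at 9.0 h (SD, n = 3 each), so it differed by less than the spread between libraries.

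Between 1.5 h and 9.0 h none of the 3 genes that entered the main test, Opn3, Opn4 and Rrh, passed. The two-sided limma test on log2(RPKM + 0.1) covered the 13490 genes that reached 1 RPKM in 3 libraries, with a threshold of 0.05 after Benjamini-Hochberg adjustment. It called 30 genes, 0.222% of those tested (0.0741% as lower at 9.0 h), so a count of 0 of 3 is near the background. The test did call known clock-controlled genes, such as Dbp, with 26.9 ± 6.15 RPKM at 1.5 h and 78.6 ± 4.73 at 9.0 h (log2 fold change 1.57 ± 0.18 SE, limma adjusted p = 0.0072). At an unadjusted limma p of 0.05, 1 of the 3 genes, Opn3, passed, against 11.1% of all tested genes. Adcyap1 reached 1 RPKM in 2 libraries and Opn5 in none, so both stood outside that test. Adcyap1 was tested in the same model fitted on the 18862 genes above 0 in any library, of which 0.154% were called.

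**Figure D2:**
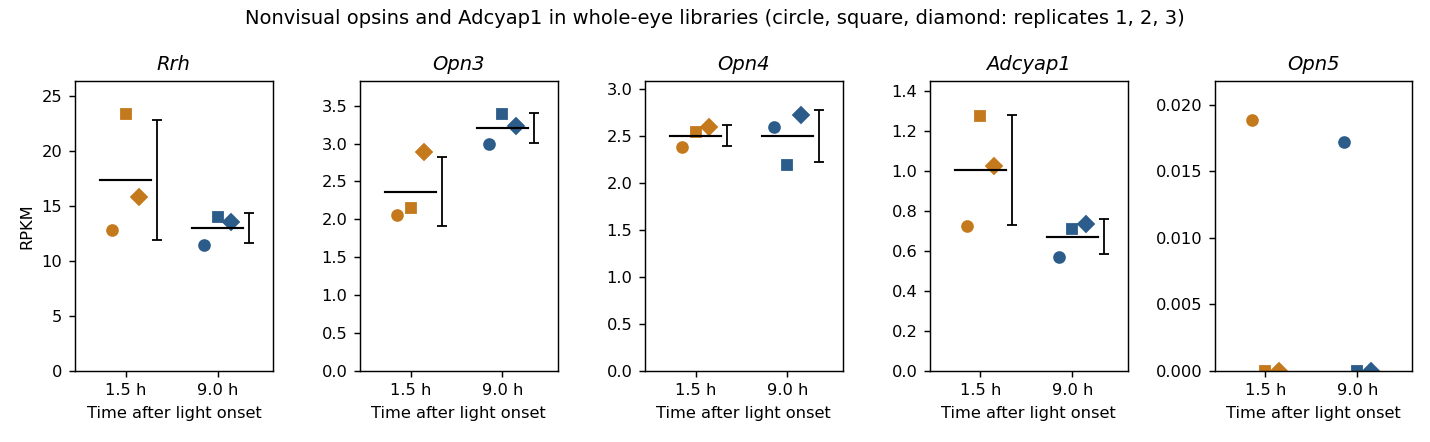
RPKM of each gene (vertical axes from 0, 1 scale per gene) in each library at 1.5 h (orange) and 9.0 h (blue); horizontal lines are means and bars SD over 3 libraries, left out for Opn5. The times do not overlap for Opn3, overlap for Rrh, Opn4 and Adcyap1, and Opn5 is above 0 in 1 library at each time.

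Of the 4 genes with a fitted difference, Opn4 had the one nearest to 0. In replicate order its libraries had 2.38, 2.54 and 2.59 RPKM at 1.5 h and 2.59, 2.19 and 2.72 at 9.0 h, which rest on about 70.0 to 177.0 reads each. The means were 2.50 ± 0.11 and 2.50 ± 0.27 RPKM (SD, n = 3 each), and the lowest and the highest library were both at 9.0 h. On the log2 scale the difference, 9.0 h minus 1.5 h, was −0.0063 ± 0.16 SE (limma adjusted p = 0.994), with a 95% interval from −0.37 to 0.35. That interval covers folds from 0.775 to 1.28, so these libraries do not exclude a change within it. It is not a limit of detection, and larger changes could also miss the adjusted threshold. The gene lies on chromosome 14 of GRCm38, 34590618 to 34600142, on the minus strand. GENCODE places an antisense gene there that shares 130 nt of exon with it, and since the strand setting of the counting is not given, reads of the pair cannot be told apart.

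Set against ganglion cell markers of the same library, Opn4 also overlapped between the times. Of the 10 markers on this list, 9 were tested and none was called, with 2 fold changes above 0 and 7 below (median −0.06, against −0.0031 over all tested genes). Of the 9 tested, 2 (Nefl and Pou4f2) were lower at 9.0 h without overlap, against 8.41% of all tested genes. The list includes Nefl, a neurofilament subunit (111 ± 7.53 and 91.2 ± 6.38 RPKM; limma adjusted p = 0.497), and Sncg, gamma-synuclein (72.1 ± 9.87 and 70.6 ± 7.08 RPKM; limma adjusted p = 0.964). Pou4f2, a transcription factor of ganglion cells, had 1.64 ± 0.12 and 1.39 ± 0.095 RPKM (limma adjusted p = 0.694). The summed list had 223.0 to 255.0 RPKM at 1.5 h and 206.5 to 223.2 at 9.0 h. Relative to the mean log2 of the 9 markers with a mean of at least 1 RPKM, Opn4 stood at −1.79, −1.82 and −1.74 at 1.5 h and −1.64, −1.88 and −1.59 at 9.0 h. The marker mean itself was lower at 9.0 h, at −0.034 to −0.051 from its mean over the 6 libraries, against −0.019 to 0.10 at 1.5 h. The difference of Opn4 was 0.079 (exact permutation test, two-sided, p = 0.4), where 3 libraries against 3 cannot go below 0.1. Eomes, the transcription factor that marks photosensitive ganglion cells, was lower than Opn4 in 6 of 6 libraries, and the ratio of Opn4 to Eomes was 2.07 ± 0.22 at 1.5 h and 2.21 ± 0.67 at 9.0 h (SD, n = 3 each).

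The signalling partners through which melanopsin acts were measured in the same libraries. Of 11 listed genes, 9 were tested and none was called, with 4 fold changes above 0 and 5 below (median −0.10, against −0.0031 over all tested genes). Gnaq, the alpha subunit of the Gq protein, had 10.4, 12.55 and 11.6 RPKM at 1.5 h and 8.45, 7.48 and 7.85 at 9.0 h. The times did not overlap for Gnaq, at a log2 fold change of −0.53 ± 0.14 SE (limma adjusted p = 0.19), and 8.41% of all tested genes were likewise lower at 9.0 h without overlap. Its relative Gna11 had a log2 fold change of 0.016 ± 0.15 SE (limma adjusted p = 0.983). Plcb4, the phospholipase C of these cells, had 13.3 ± 0.38 and 11.7 ± 2.18 RPKM (log2 fold change −0.21, limma adjusted p = 0.692), and Adrbk1, a receptor kinase, 23.7 ± 5.77 and 24.6 ± 2.49 RPKM (limma adjusted p = 0.915). The channel genes Trpc6 and Trpc7 were under the limit for testing, with 0.454 ± 0.097 RPKM for Trpc6 and 0.737 ± 0.13 for Trpc7 at 1.5 h, against 0.479 ± 0.073 and 0.526 ± 0.051 at the later time, and Trpc7 was lower at 9.0 h without overlap.

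Adcyap1 had its 2 highest values at 1.5 h, but the times overlapped. Its libraries had 0.724, 1.27 and 1.03 RPKM at 1.5 h and 0.57, 0.712 and 0.733 at 9.0 h, from about 45.2 to 72.4 reads each. Replicate 1 of 1.5 h lay below replicate 3 of 9.0 h, and replicates 2 and 3 of 1.5 h lay above every 9.0 h library. The log2 difference, 9.0 h minus 1.5 h, was −0.50 ± 0.24 SE (limma adjusted p = 0.532; 95% interval −1.04 to 0.043), on a scale whose pseudocount of 0.1 understates changes of low genes. At a pseudocount of 1 it was −0.26 and without 1.5 h replicate 2 −0.33. Without 1.5 h replicate 1 it was larger, at −0.70 (limma adjusted p = 0.14), and it did not pass in any setting tried. Relative to the ganglion cell markers Adcyap1 stood at −3.38, −2.77 and −2.99 at 1.5 h and −3.65, −3.38 and −3.35 at 9.0 h on the log2 scale. The difference of −0.41 was within the overlap of the libraries (exact permutation test, two-sided, p = 0.3).

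Adcyap1 lies on chromosome 17 of GRCm38, 93199017 to 93206537, on the plus strand. A RefSeq promoter window of the gene (GRCm38.p6, chr17:93198918-93199217, plus strand, 250 bases before to 50 after a RefSeq start) is printed. That start lies inside the GENCODE span given, downstream of 93199017. The window of Opn3 is printed further on, because these genes had log2 differences of opposite sign. Capitals mark matches to the motifs searched, here TGACG and TATAAA:

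Adcyap1 promoter: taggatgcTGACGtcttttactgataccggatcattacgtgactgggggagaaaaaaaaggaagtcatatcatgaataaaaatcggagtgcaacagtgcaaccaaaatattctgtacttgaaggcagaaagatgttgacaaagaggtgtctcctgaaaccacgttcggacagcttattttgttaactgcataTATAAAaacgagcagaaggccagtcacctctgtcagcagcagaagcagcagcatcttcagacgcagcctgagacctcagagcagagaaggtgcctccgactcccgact

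Promoters of 4 of the 5 genes, Opn3, Opn4, Rrh and Adcyap1, were searched on both strands for 6 motifs. These were the E-box CACGTG, the D-box TTATGTAA, the cAMP response element TGACGTCA, its core TGACG, which the full element contains, the TATA box TATAAA and the GC box GGGCGG. The window printed for Adcyap1 held 1 such core, beginning at −242 from the start (20.8% of 32851 promoter windows of this length hold one), and 1 TATA box at −58 (13.6% of windows). RefSeq lists a second, overlapping Adcyap1 window, whose start is the GENCODE start of the gene. In it the same core lies at −91, and it held no TATA box. The window of Rrh held 1 TATA box at −231. Positions are counted from the RefSeq start of each window, which for Opn3 and Rrh also lies inside the GENCODE span. None of the searched windows held the E-box, the D-box or the full cAMP response element, which occur in 7.15%, 0.938% and 1.79% of all windows. A match is a run of letters and no evidence of binding.

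Genes that process PACAP and receive its signal did not pass either. Of 8 listed genes 7 were tested and none was called, with 3 fold changes above 0 and 4 below (median −0.0092, against −0.0031 over all tested genes). Pcsk1, a convertase that cuts peptide precursors, had 2.00, 2.12 and 1.83 RPKM at 1.5 h and 1.57, 1.58 and 0.99 at 9.0 h. Its times did not overlap, at a log2 fold change of −0.52 ± 0.21 SE (limma adjusted p = 0.398). It was the 1 tested gene of this list that was lower without overlap, against 8.41% of all tested genes. Adcyap1r1, the PACAP receptor PAC1, had 1.26, 1.19 and 1.41 RPKM at 1.5 h and 2.12, 1.63 and 1.36 at 9.0 h, with overlap (log2 fold change 0.36 ± 0.21 SE, limma adjusted p = 0.57). The most abundant gene of the list, Cpe, a carboxypeptidase of peptide processing, had 332.0 ± 50.8 and 356.3 ± 3.84 RPKM (limma adjusted p = 0.846). Pam, which amidates peptide ends, had 16.1 ± 4.99 and 16.7 ± 1.07 RPKM (limma adjusted p = 0.896).

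Downstream of PACAP and of the opsins that act through cyclic AMP, 10 of 10 listed cAMP genes were tested and none was called. Of these, 2 were higher at 9.0 h without overlap and 3 lower, against 9.78% and 8.41% of all tested genes, and their median was −0.15. Prkaca, a catalytic subunit of protein kinase A, had 53.1 ± 4.22 RPKM at 1.5 h and 69.5 ± 5.85 at 9.0 h (log2 fold change 0.39 ± 0.14 SE, limma adjusted p = 0.335). The phosphodiesterase gene Pde4d had 5.34 ± 0.84 and 3.98 ± 0.43 RPKM (−0.41 ± 0.17 SE, limma adjusted p = 0.398), and Gnas, the stimulatory G protein, 185.4 ± 29.1 and 220.3 ± 5.90 RPKM (0.26, limma adjusted p = 0.592). Among the 4 inhibitory G protein genes, a class to which Opn3 and Opn5 have been linked, none was called. Gnai2 had 104.8, 99.5 and 114.6 RPKM at 1.5 h and 133.9, 121.7 and 134.0 at 9.0 h, without overlap (log2 fold change 0.29 ± 0.14 SE, limma adjusted p = 0.479). The others spanned −0.059 (Gnai1) to 0.0063 (Gnai3).

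**Figure D3:**
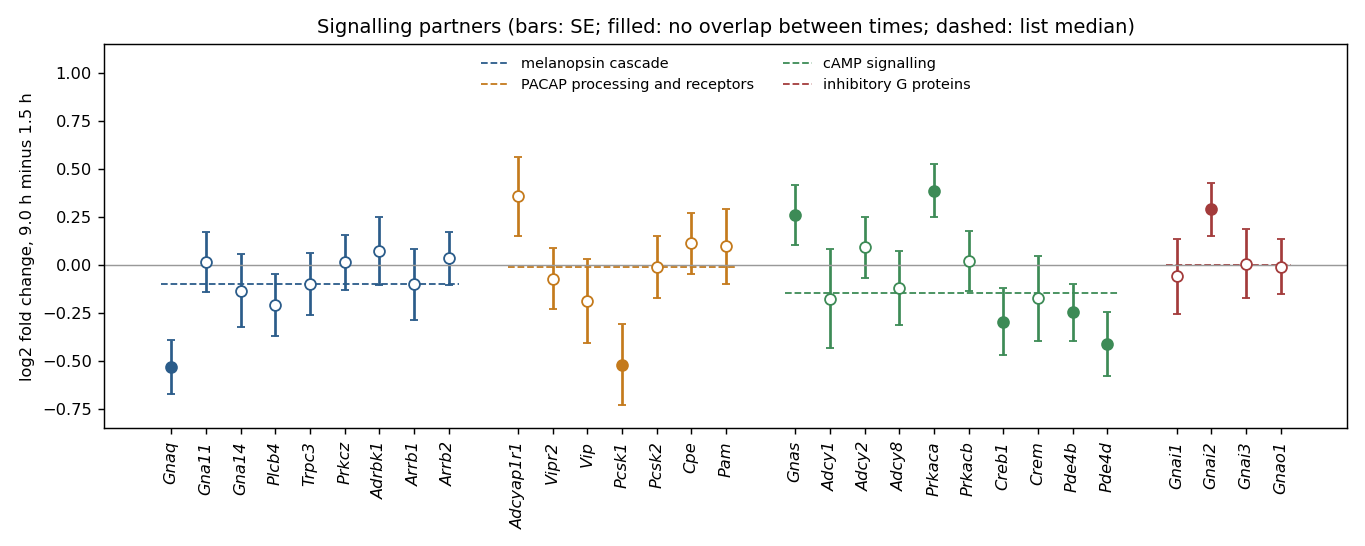
Log2 fold change, 9.0 h minus 1.5 h, of each tested gene of 4 lists (horizontal axis: genes), with SE bars; filled points do not overlap between the times and dashed lines are list medians. No gene passed the adjusted threshold, and the extremes are Gnaq at −0.53, Pcsk1 at −0.52 and Prkaca at 0.39.

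Opn3 was the 1 gene of the 3 tested whose times did not overlap, as was the case for 18.2% of all tested genes. Its libraries had 2.06, 2.14 and 2.90 RPKM at 1.5 h and 2.99, 3.39 and 3.23 at 9.0 h, from about 52.3 to 194.1 reads. Replicate 3 of 1.5 h lay just under the lowest 9.0 h library, and the other 2 libraries of 1.5 h lay well below. The means were 2.37 ± 0.46 and 3.20 ± 0.20 RPKM (SD, n = 3 each). The log2 difference, 9.0 h minus 1.5 h, was 0.44 ± 0.18 SE (limma adjusted p = 0.398). As a fold this is 1.35, with a 95% interval of 1.03 to 1.78 before adjustment. It did not pass over all genes, and 9.78% of all tested genes were likewise higher at 9.0 h without overlap. Its direction was the same in each of the 14 alternative settings tried, from 0.33 to 0.58. The highest, 0.58, was without 1.5 h replicate 3, the pool with Y-linked reads (limma adjusted p = 0.37).

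Opn3 lies on chromosome 1 of GRCm38, 175662421 to 175692776, on the minus strand, and its only GENCODE transcript is 1913 nt long. Chml, which encodes a Rab escort protein, lies on the same strand and shares 461 nt of exon with it. How the counting treated such reads is not given in the sources used here, so the values of this pair are uncertain. Chml had 1.37, 1.36 and 1.38 RPKM at 1.5 h and 1.12, 1.29 and 1.19 at 9.0 h, lower at 9.0 h without overlap (log2 fold change −0.18 ± 0.18 SE, limma adjusted p = 0.775), as were 8.41% of all tested genes. The ratio of Opn3 to Chml was 1.50, 1.58 and 2.10 at 1.5 h and 2.66, 2.62 and 2.71 at 9.0 h. Since neither gene overlapped between the times and their signs were opposite, the ratio could not overlap either and is no further evidence.

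The 3 tested genes with the pattern most like Opn3, by Pearson r of log2 values over 6 libraries, were Crygd (r = 0.99) and Crybb3 (r = 0.98), crystallins of the lens, and Nkd1 (r = 0.99), an inhibitor of Wnt signalling. With 6 points such values are common: 108 of the tested genes had r above 0.9 with Opn3. The libraries share depth and tissue mixture, so these are descriptions. Crygd had 7456, 9803 and 17125 RPKM at 1.5 h and 19330, 26522 and 21502 at 9.0 h, in the same library order as Opn3. The 6 lens markers, which include Cryaa, Crybb2 and the lens filament gene Bfsp1, summed to 62342 to 89446 RPKM at 1.5 h and 86312 to 101984 at 9.0 h. None of the 6 was called; 4 had fold changes above 0 and 2 below, with a median of 0.23, and they did not share 1 pattern. Crygs (log2 fold change −0.15) and Crybb2 (−0.087) overlapped and did not follow the library order of Opn3. Cryaa (0.78, limma adjusted p = 0.334) and Bfsp1 (0.39, limma adjusted p = 0.44) were higher at 9.0 h without overlap. Of all tested genes 9.78% were likewise higher, and no marker of this list was lower without overlap. Relative to their mean log2, Opn3 stood at −10.65, −11.39 and −11.04 at 1.5 h and −10.8, −10.8 and −10.9 at 9.0 h, with overlap (difference 0.20, exact permutation test, two-sided, p = 0.4, a comparison added after the likeness was seen). That difference was 0.39 without 1.5 h replicate 1 and 0.02 without 1.5 h replicate 2. With values rescaled to the total outside crystallin genes the log2 difference of Opn3 was 0.36 (limma adjusted p = 0.462), where the median of all genes was −0.084.

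The promoter of Opn3 differed in composition from the others (GRCm38.p6, chr1:175692583-175692882, minus strand, written 5′ to 3′ along the gene). Capitals mark the GC box GGGCGG:

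Opn3 promoter: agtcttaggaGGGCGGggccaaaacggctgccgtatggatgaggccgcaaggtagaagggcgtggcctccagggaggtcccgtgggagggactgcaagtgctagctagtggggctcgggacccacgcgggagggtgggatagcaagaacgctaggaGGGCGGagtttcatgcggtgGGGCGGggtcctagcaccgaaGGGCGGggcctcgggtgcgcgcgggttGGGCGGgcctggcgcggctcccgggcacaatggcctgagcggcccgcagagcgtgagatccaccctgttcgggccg

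This window held 5 GC boxes, beginning at −240, −94, −74, −53 and −26 from the RefSeq start, and 35.7% of all windows hold at least 1. Its GC content was 70.0%, above 90.4% of all windows, and it held 28 CG pairs. The windows of Opn4, Rrh and the printed one of Adcyap1 had 53.7%, 38.7% and 45.7% GC, with 4, 4 and 10 CG pairs, and no GC box. The median window had 52.7% GC and 7 CG pairs.

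Rrh was the most abundant gene of the set, and at 1.5 h its SD was 31.5% of its mean, against 4.50% for Opn4, 19.4% for Opn3 and 27.4% for Adcyap1. At 9.0 h the SD was 10.3% of the mean for Rrh, 10.9% for Opn4, 6.27% for Opn3 and 13.3% for Adcyap1. Its libraries had 12.8, 23.4 and 15.8 RPKM at 1.5 h and 11.5, 14.0 and 13.5 at 9.0 h, from about 257.2 to 523.8 reads. Replicate 2 of 1.5 h lay far above the rest, and replicate 1 of 1.5 h lay within the range of the 9.0 h libraries. The means were 17.3 ± 5.45 and 13.0 ± 1.34 RPKM (SD, n = 3 each), with a log2 difference of −0.37 ± 0.21 SE (limma adjusted p = 0.555; 95% interval −0.83 to 0.085). Its size rested on single libraries: without 1.5 h replicate 2 the difference was −0.13 (limma adjusted p = 0.796). Without 1.5 h replicate 1, the library with the low lens share, it was −0.57 and passed (limma adjusted p = 0.00907), in a fit where 9.11% of 13375 genes passed, and 4.16% of genes passed as lower at 9.0 h. The 1.5 h libraries left in that fit had 12760000 and 13000000 reads, against 24040000 to 31700000 at 9.0 h. Depth thus went with time in it, and the part of depth in this call was not tested. The gene lies on chromosome 3 of GRCm38, 129804408 to 129822587, on the minus strand.

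Of 6 listed markers of the pigment epithelium, the home of peropsin, 5 were tested and none was called, with 4 of 5 fold changes below 0 (median −0.17). Rpe65, the isomerase of the visual cycle, had 45.1, 86.2 and 70.3 RPKM at 1.5 h and 46.0, 71.3 and 58.7 at 9.0 h, and its highest library, 1.5 h replicate 2, was also that of Rrh. Lrat, which esterifies retinol, had 17.9 ± 2.99 and 14.3 ± 1.26 RPKM (limma adjusted p = 0.502), and Rdh5, a retinol dehydrogenase, 112.7 ± 10.9 and 93.58 ± 10.96 RPKM (limma adjusted p = 0.554). Slc16a8, a lactate transporter, went the other way (log2 fold change 0.17) and was lowest, at 28.6 RPKM, in the library where Rrh was highest, and Stra6, the retinol transporter, stayed between 20.07 and 21.6 RPKM. The summed list had 224.6 to 282.4 RPKM at 1.5 h and 204.0 to 246.4 at 9.0 h. Relative to the mean log2 of these 5 markers, Rrh stood at −1.46, −0.85 and −1.34 at 1.5 h and −1.52, −1.39 and −1.51 at 9.0 h. The difference shrank from −0.37 to −0.25 and the times overlapped (exact permutation test, two-sided, p = 0.2), and it was −0.07 without 1.5 h replicate 2. Pigment genes summed to 768.1 to 1071 RPKM at 1.5 h and 704.7 to 840.6 at 9.0 h, and 0 of 4 were called, with Tyrp1 at −0.52 (limma adjusted p = 0.331).

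**Figure D4:**
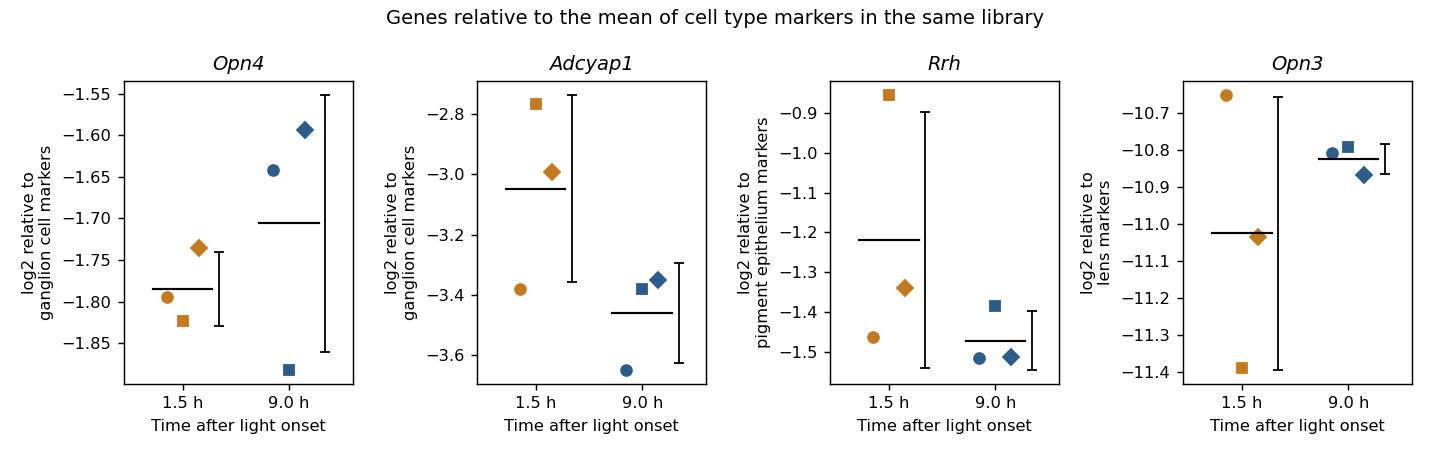
Log2 level of Opn4, Adcyap1, Rrh and Opn3 relative to the mean log2 of cell type markers in the same library (vertical axes, not from 0), at 1.5 h (orange) and 9.0 h (blue), with means and SD over 3 libraries. The times overlap in all 4 panels, and 1.5 h replicate 2 (square) stands highest for Rrh, at −0.85.

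The tested genes whose pattern was most like that of Rrh over the 6 libraries were 1810035L17Rik, A430035B10Rik and Zfp948 (Pearson r = 0.9973, 0.9965 and 0.9949), and 575 genes had r above 0.9 with it. All 3 had their highest value in 1.5 h replicate 2, such as 22.8 RPKM for 1810035L17Rik against 9.13 to 14.1 elsewhere. Adcyap1, outside the main test, had r = 0.953 with Rrh and was likewise highest in that library, so this pattern was not particular to either gene. For Opn4 the 3 were Nudt16, Wrap53 and Doc2a (r = 0.97, 0.97 and 0.95), and 16 genes had r above 0.9. Nudt16 spanned 5.73 to 6.43 RPKM and Doc2a 3.60 to 4.74.

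Rgr and the short-wavelength cone opsin Opn1sw were compared between the times in the same way, and neither was called. Rgr had 296.9, 400.7 and 297.2 RPKM at 1.5 h and 216.8, 271.6 and 269.4 at 9.0 h, lower without overlap (−0.39 ± 0.18 SE, limma adjusted p = 0.456). Opn1sw was also lower without overlap (−0.30 ± 0.14 SE, limma adjusted p = 0.469), as were 8.41% of all tested genes. Rrh and Rgr, both of the pigment epithelium, had log2 differences of the same sign and similar size (−0.37 and −0.39), and neither passed.

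Opn5 was at or under the level of single reads. It was listed at 0.0189 RPKM in 1.5 h replicate 1 and at 0.0172 in 9.0 h replicate 1, and at 0 in the other 4 libraries. At its GENCODE transcript length of 1906 nt these values equal about 1.04 reads each, so about 2.08 reads were seen over all 6 libraries. A library with 0 reads could hold up to 0.0526 to 0.123 RPKM (3 reads, which covers counting error only), and the values above 0 lie below the same limit of their own libraries (0.0544 and 0.0497). No fold change between the times is given, and a difference was not detectable at this depth. Adcyap1, the next lowest of the set, stood 8.47- to 13.6-fold above the level of 3 reads of Opn5. The gene lies on chromosome 17 of GRCm38, 42556783 to 42611395, on the minus strand.

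**Figure D5:**
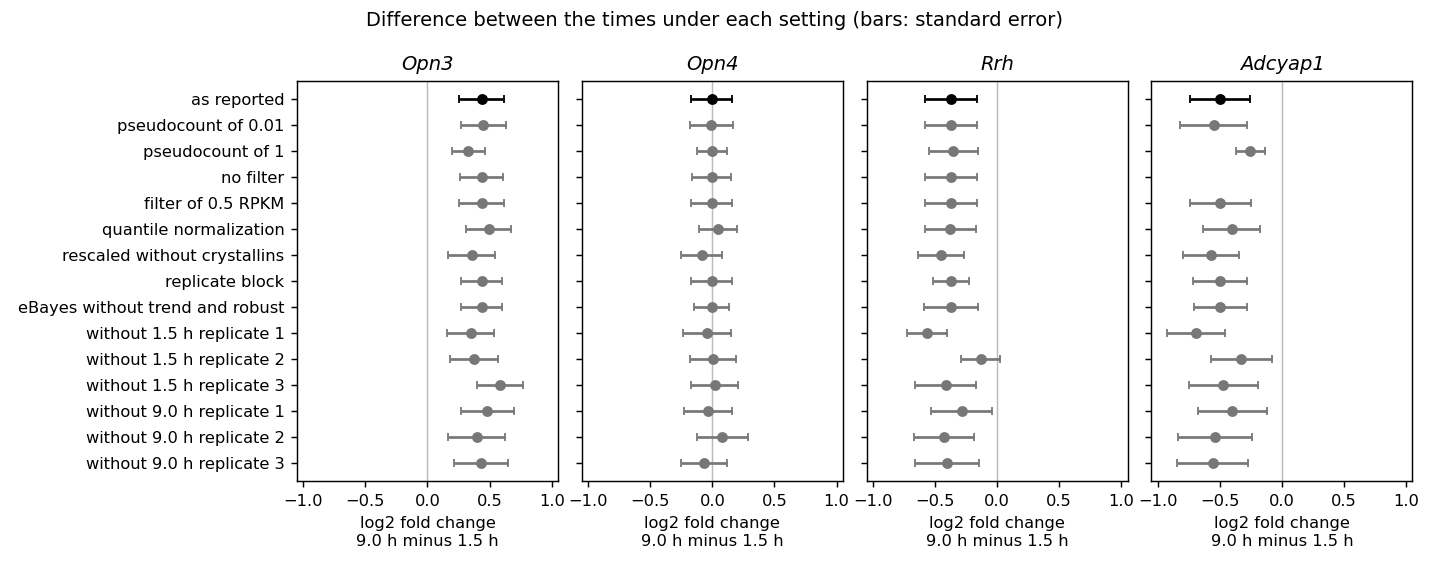
Log2 fold change, 9.0 h minus 1.5 h, of Opn3, Opn4, Rrh and Adcyap1 (horizontal axes) as reported (black) and under each alternative (grey), with SE bars; the reported value of Adcyap1 is already the one with no filter. Opn3 stays between 0.33 and 0.58, Opn4 lies near 0 on either side, and Rrh reaches −0.13 without 1.5 h replicate 2 and −0.57 without 1.5 h replicate 1.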

How the data were processed

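The authors deposited 1 table per library of RPKM values for 22692 gene symbols, a unit inferred from the values, whose low steps follow gene length, since the headers name none. GSNAP, HTSeq and build mm9 are named in the submitters' processing notes; their versions, the annotation and the strand setting are not stated there. Depth was estimated from the steps of low RPKM values in genes with 1 GENCODE M21 transcript length, where 70.5% to 74.1% of values came out whole (tolerance 0.1 read; median 15.1% to 18.1% for other step sizes). Reads per gene use the longest transcript with a RefSeq mRNA and are approximate. Coordinates are of GRCm38, not of the build of the files.

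Limma 3.58.1 in R 4.3.3 (eBayes, trend, robust) was run on log2(RPKM + 0.1) with 3 libraries at each time and checked on simulated data. Marker ratios and level order used exact permutation tests (scipy 1.17.1); no ratio was made for Opn5. Near-identical copies were searched with minimap2 2.31 (at least 200 nt and 95% identity), which found Chml for Opn3 alone. These genes overlap and share 461 nt of exon, so the match need not be a separate copy. The genes, the lists and the tests were chosen with earlier results of these data known. Of each of the 14 lists, the text may name called genes, otherwise the 2 with the highest mean and the 2 with the largest fold change, and for each tested gene of the set the 3 most alike. Trpc6, Trpc7, Eomes, Tbx20, Chml, Gnai3, Dbp, Crygs, Slc16a8, Stra6, Hbb-b1, Hba-a1 and Eif2s3y were named outside this rule, after their values were seen. An item and the list results that need it are not reported here. Alternatives were other pseudocounts, filters, scalings, a replicate block and leaving out each library.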

Additional observations from a re-analysis of the deposited data

How the results depend on the processing

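Opn3, Rrh and Adcyap1 kept their direction in each setting tried. Opn4 lay near 0 and changed sign after quantile normalization (0.049, limma adjusted p = 0.943) and when single libraries were left out (−0.067 to 0.082). Leaving out 1 library gave 0.35 to 0.58 for Opn3, −0.57 to −0.13 for Rrh and −0.70 to −0.33 for Adcyap1, and the one call was that of Rrh without 1.5 h replicate 1 (limma adjusted p = 0.00907). In that fit the 1.5 h libraries were those of lowest depth, so depth went with time. The number of genes called, 30, was 16 after quantile normalization, 141 with the replicate block, and between 2 (without 9.0 h replicate 3) and 1219 (without 1.5 h replicate 1) when a library was left out; the cause was not tested.

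Libraries with the same replicate number did not deviate together throughout: correlations across genes of deviations from the mean of the time were 0.347, 0.484 and −0.215 for numbers 1 to 3, so the numbers were not taken as pairs. With the replicate block no gene of the set passed (limma adjusted p = 0.242 for Opn3, 0.26 for Rrh, 0.402 for Adcyap1 and 0.991 for Opn4). Depth limits Opn5, at about 1 read in each of 2 libraries, and with 3 libraries a time the intervals of the other genes are wide.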

Other observations

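Tbx20, a transcription factor of photosensitive ganglion cells, had 0.874 ± 0.23 RPKM at 1.5 h and 0.588 ± 0.037 at 9.0 h (SD, n = 3 each), lower at 9.0 h without overlap and under the limit for testing. Of all tested genes, 8.41% were lower at 9.0 h without overlap. The ratio of Opn4 to Tbx20 was 3.84, 2.38 and 2.77 at 1.5 h and 4.74, 3.57 and 4.52 at 9.0 h, with overlap. Of the other cell type lists, corneal epithelium had 0 of 5 called, against 0.222% of all tested genes. Its fold changes were above 0 for 4 and below for 1 (median 0.42, Krt14 at 0.55, Krt12 at −0.043). Skeletal muscle had 0 of 4 called, with 3 above 0 and 1 below (median 0.35). Acta1 was at 0.90 (limma adjusted p = 0.154) and Ckm at −0.13. Mueller glia had 0 of 4 called, with 1 above 0 and 3 below (median −0.10). Aqp4 was at −0.49 (limma adjusted p = 0.378) and Glul at 0.13. Of 4 blood markers 2, Hbb-b1 and Hba-a1, were listed at 0 in all libraries, while Beta-s had 41.9 to 366.9 RPKM. How the counting treated these genes is not given, so the zeros are not read as absent RNA.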
